A study of Canis lupus familiaris with 12 samples.

Results

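The miR-424 cluster is a group of 5 miRNA genes on the X chromosome, and its expression was compared between the canine mammary gland tumor cell line CHMm and its tamoxifen (TAM)-resistant derivative, CHMmTAM. The members were the entries of the count table named exactly cfa-miR-424, cfa-miR-503, cfa-miR-450a, cfa-miR-450b and cfa-miR-542 (cfa for Canis familiaris), written below without the prefix. All 5 of 5 names were found among the 453 canine miRNAs listed, and all 5 were among the 284 miRNAs tested.

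CHMm came from a metastatic lesion (pleural effusion) of a female dog with a mammary gland tumor. CHMmTAM was raised from it by increasing TAM over 10 months to 10 μM, kept at 10 μM for 1 month, and then grown without the drug for 1 week. Both lines grew in phenol-red-free medium with steroid-depleted serum, and 3 small RNA libraries of each were sequenced. CHMmTAM is a single derived line, so resistance and other differences that arose between the lines in culture cannot be told apart. The labels and methods do not say that the 3 libraries of a line came from separate cultures, so p-values measure the spread between these libraries, which may be technical.

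The cluster is transcribed in many tissues, and its miRNAs are cut from the same region of the chromosome. miR-424 and miR-503 belong to the extended miR-15/16 family, whose members have a similar start of the mature sequence (the seed). The family represses cell cycle regulators such as cyclin D1 and CDC25A. The pair is known from the mammary gland, where TGF-β induces it in epithelial cells and where mice without it have delayed involution after lactation. One arm of miR-542 is known to repress survivin, an inhibitor of cell death. miR-450a and miR-450b are close relatives of each other in sequence and lie outside the miR-15/16 family.

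RefSeq's annotation of the dog assembly UU_Cfam_GSD_1.0 has the 5 genes follow each other as MIR450B, MIR450A, MIR542, MIR503 and MIR424, with no other annotated gene between or across them. HPRT1 is the next gene on the MIR450B side and PLAC1 the next on the MIR424 side. Among miRNA genes alone, the next on the MIR450B side is MIR106A, a gene of the X-linked miR-106a cluster. The submitters' processing notes name another assembly, CanFam3.1, so no coordinates are given. The table names each miRNA without the arm of its precursor, and no mature sequences were used here.

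The libraries held from 7512659 to 12482211 counts, so that 3 counts, the limit of what a count of 0 allows, correspond to between 0.24 and 0.399 CPM, the count scaled to a common library size. miR-21 held between 50.2% and 54.5% of each library. The libraries within a line differed beyond sampling noise (chi-square over its degrees of freedom between 26.3 and 85.8), so none was treated as a repeated deposit. The 7 epithelial miRNAs checked against the label (the miR-200 family, miR-203 and miR-205) were all present, with a summed level from 25124 to 26471 CPM in CHMm and from 22450 to 23736 CPM in CHMmTAM. Of the markers of other cells, the 6 blood miRNAs summed to between 4.92 and 6.29 CPM in CHMm and between 11.9 and 15.0 CPM in CHMmTAM. The 4 muscle miRNAs summed to between 6.37 and 7.25 CPM in CHMm and between 28.9 and 30.3 CPM in CHMmTAM. The 4 stromal miRNAs went the other way, from between 39.7 and 47.6 CPM in CHMm to between 23.8 and 28.8 CPM in CHMmTAM. The endothelial miR-126 was at 0 in CHMm and between 0.0783 and 0.272 CPM in CHMmTAM, with at most 3 counts in a library. No marker was at 0 in all 6 libraries, and the part of other cell types in the results below was not tested.

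The members of the cluster did not all pass the test together. miR-450a and miR-450b were lower in CHMmTAM, by 17.9% and 17.8% of their mean level in CHMm. The mammary pair miR-424 and miR-503, and miR-542, did not pass the test in either direction. Of the 5 members 2 passed an FDR below 0.05, where 44% of all tested miRNAs did, and both were lower, where 18.7% of all tested miRNAs passed as lower. No member passed the limit that the paper adds, a log2 fold change beyond 1 or -1, which 11.3% of the tested miRNAs passed. The same 2 members passed with limma-voom and with DESeq2, and no others had an unadjusted p below 0.05. The share of members called was therefore close to the background of the whole table. In such bulk libraries, fewer cells with a miRNA and less of it per cell cannot be told apart. The median log2 fold change of the members was 0.01, against 0.06 over all tested miRNAs.

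**Figure D1:**
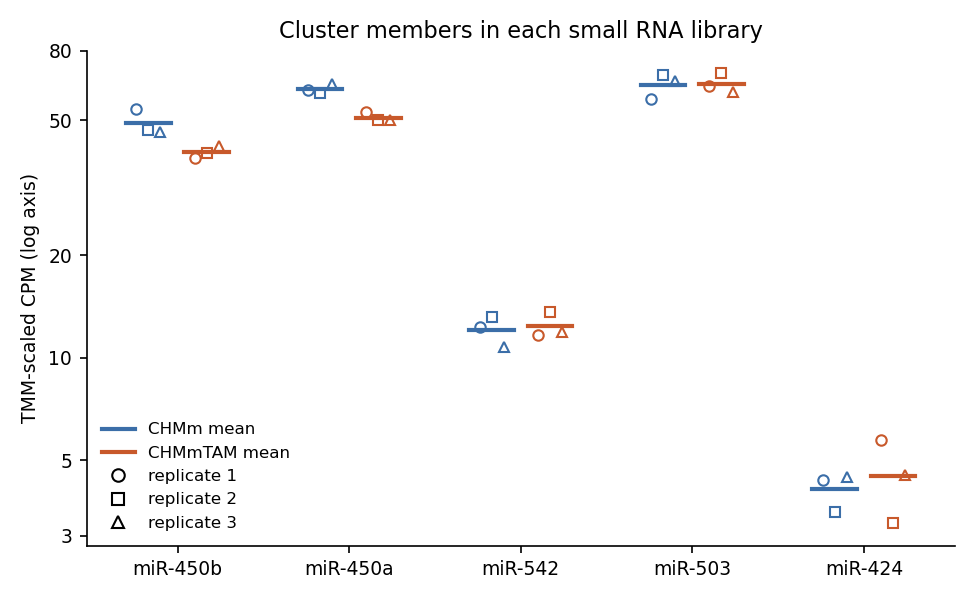
TMM-scaled CPM on a log axis for each cluster member in each of the 6 libraries, in the order of the genes along the chromosome, with 1 point per library, its shape giving the replicate number, and a bar at the mean of each line. The 3 CHMmTAM libraries lie below the 3 CHMm libraries for miR-450b and miR-450a, and the lines overlap for miR-542, miR-503 and miR-424.

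Levels are given as CPM after scaling by edgeR's trimmed mean of M-values (TMM). Mature miRNAs have almost the same length, so levels of different members are compared as reads without a length correction, and with no correction for how well each is captured. Together the 5 members took from 0.0165% to 0.0194% of the counts of a library.

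miR-503 was the most abundant member in both lines. The CHMm libraries held 422, 786 and 584 counts of it and the CHMmTAM libraries 803, 757 and 481, which correspond to 57.7, 67.7 and 65.3 CPM against 62.9, 68.6 and 60.4 CPM. The lowest library belonged to CHMm and the highest to CHMmTAM, and the lines overlapped. The means were 63.5 ± 5.20 CPM (SD, n = 3) in CHMm against 64.0 ± 4.21 CPM (SD, n = 3) in CHMmTAM. The log2 fold change was 0.01 (SE 0.09, FDR = 0.976 by the quasi-likelihood (QL) test of edgeR, adjusted over all tested miRNAs). Its 95% interval ran from -0.17 to 0.18, that is from 0.888-fold to 1.14-fold, so a 2-fold change in either direction lay outside it.

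miR-424, the other member of the mammary pair, was the least abundant. It had only 32, 41 and 40 counts in the libraries of CHMm, with 73, 36 and 36 in those of CHMmTAM, or 4.38, 3.53 and 4.47 CPM against 5.71, 3.26 and 4.52 CPM. CHMmTAM held both the highest and the lowest library, replicates 1 and 2, with a 1.75-fold gap between them. The means were 4.13 ± 0.518 CPM (SD, n = 3) in CHMm against 4.50 ± 1.23 CPM (SD, n = 3) in CHMmTAM, and the log2 fold change was 0.16 (SE 0.23, FDR = 0.615 by the edgeR QL test). The 95% interval, from 0.82-fold to 1.52-fold, was the widest of the 5, so these counts are compatible with a change of either sign within it. Without CHMmTAM replicate 1 the log2 fold change was -0.07, so this library set the sign. Over the whole counts of each library, the 95% Wilson interval of replicate 1 of CHMmTAM was 4.65 to 7.35 CPM and that of replicate 2 was 2.35 to 4.50 CPM, an interval that covers counting error only.

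The gap between the neighbours miR-503 and miR-424 was kept in both lines. miR-503 was 15.4-fold above miR-424 in CHMm and 14.2-fold above it in CHMmTAM by mean CPM. The table gives 1 entry per name, and reads of the other arm of either precursor were not analysed here.

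miR-542, whose gene lies between MIR450A and MIR503, was counted 90, 153 and 96 times in CHMm, against 149, 150 and 95 times in CHMmTAM. In CPM these were 12.3, 13.2 and 10.7 against 11.7, 13.6 and 11.9. The 3 CHMmTAM libraries lay within or just above the range of CHMm. The means were 12.1 ± 1.24 CPM (SD, n = 3) and 12.4 ± 1.05 CPM (SD, n = 3), a log2 fold change of 0.03 (SE 0.15, FDR = 0.895 by the edgeR QL test). The 95% interval ran from 0.838-fold to 1.25-fold.

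For miR-450a the counts of CHMm were 450, 700 and 573, against 673, 551 and 398 for CHMmTAM. Scaled, these were 61.5, 60.3 and 64.0 CPM against 52.7, 49.95 and 50.004 CPM. Every CHMmTAM library was below every CHMm library, and within each line the values were close together, with a coefficient of variation of 3.11% and 3.07%. Counting error alone gives 5.01% at the lowest count, 398, so this closeness does not measure how well the libraries repeat. The mean fell from 61.9 ± 1.92 CPM (SD, n = 3) to 50.9 ± 1.56 CPM (SD, n = 3). The log2 fold change was -0.28 (SE 0.09, 95% interval -0.46 to -0.10, FDR = 0.0068 by the edgeR QL test).

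For miR-450b they were 394, 543 and 414 for CHMm, against 494, 441 and 335 for CHMmTAM. Scaled, these were 53.9, 46.7 and 46.3 CPM against 38.7, 40.0 and 42.1 CPM. Again the lines did not overlap, and CHMm replicate 1 stood above the other libraries. The mean fell from 49.0 ± 4.26 CPM (SD, n = 3) to 40.2 ± 1.72 CPM (SD, n = 3), and the log2 fold change was -0.28 (SE 0.10, 95% interval -0.47 to -0.09, FDR = 0.0109 by the edgeR QL test). This call was lost without CHMm replicate 1, with a log2 fold change of -0.21 and FDR = 0.0768 from the same test. It was also lost without CHMmTAM replicate 1, at -0.23 and FDR = 0.0589 from that test.

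That the lines did not overlap was frequent in this table. It held for 51.8% of the tested miRNAs, and for 22.9% with CHMmTAM below CHMm, against 2 of the 5 members. An exact two-sided permutation test of 3 libraries against 3 cannot give a p below 0.1 for any of them. The 2 lower members are also small changes for these lines, since 169 of the 284 tested miRNAs had a larger absolute log2 fold change and 68 had a lower one. Among the 52 tested miRNAs between 10 and 100 CPM, the range in which miR-503, miR-450a, miR-450b and miR-542 lie, 37 passed an FDR below 0.05 and 20 of these were lower. Tested against a fold change of 1.2 instead of against no change, neither miR-450a (FDR = 0.418 from edgeR's glmTreat) nor miR-450b (FDR = 0.423 from the same test) passed.

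**Figure D2:**
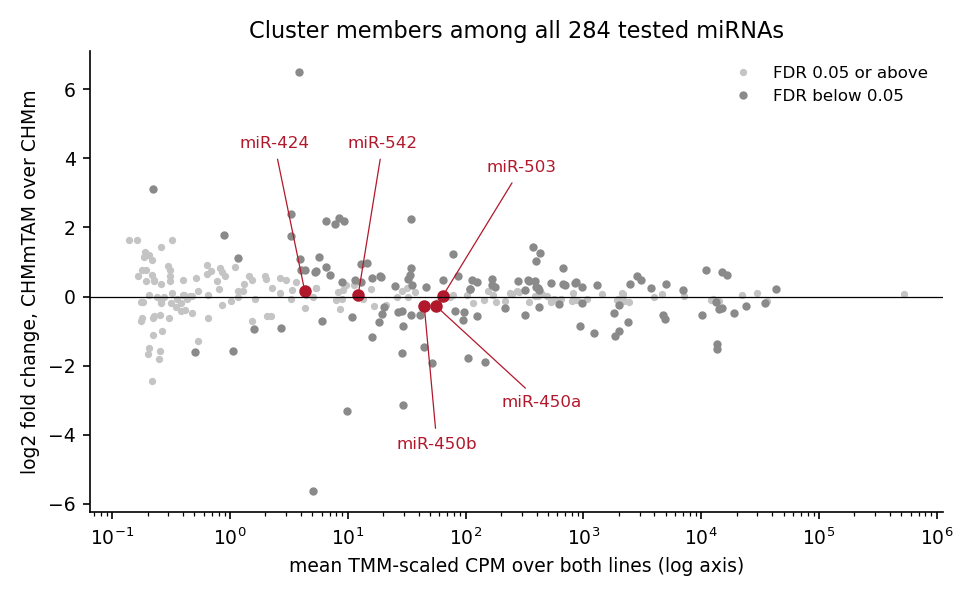
Log2 fold change of CHMmTAM over CHMm against the mean TMM-scaled CPM (log axis) for the 284 tested miRNAs, with those at an FDR below 0.05 in dark grey and the 5 cluster members in red. The members lie between -0.28 and 0.16 on the log2 scale, inside the band of the other miRNAs at their levels.

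The order of the members by level was miR-503, miR-450a, miR-450b, miR-542 and miR-424 in both lines. In CHMm the first 2 could not be separated, since miR-503 exceeded miR-450a in 2 of the 3 libraries and by 1.03-fold on average. In CHMmTAM miR-503 exceeded miR-450a in all 3 libraries, by 1.26-fold, and their values did not overlap. miR-450a was 1.27-fold above miR-450b in CHMm and 1.26-fold above it in CHMmTAM. The steps to miR-542 and then to miR-424 were larger, at 4.06-fold and 2.93-fold in CHMm and 3.25-fold and 2.76-fold in CHMmTAM. In both lines these lower steps were larger than the spread of the libraries, which did not overlap.

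Ratios of 2 members within one library do not depend on how libraries are scaled, so they show directly how the members moved against each other. The ratio of miR-503 to miR-450a counts was 0.938, 1.12 and 1.02 in CHMm and 1.19, 1.37 and 1.21 in CHMmTAM. All 3 CHMmTAM libraries were above all 3 CHMm libraries. The ratio of miR-450a to miR-542 was 5.00, 4.58 and 5.97 in CHMm and 4.52, 3.67 and 4.19 in CHMmTAM, again with no overlap. The ratio of miR-450b to miR-542 was 4.38, 3.55 and 4.31 in CHMm and 3.32, 2.94 and 3.53 in CHMmTAM. These values did not overlap either, although the nearest libraries, at 3.55 and 3.53, almost met. On the log2 scale, with 0.5 added to each count, these 3 ratios differed between the lines by 0.29, -0.32 and -0.32.

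By contrast, miR-450a to miR-450b stood at 1.14, 1.29 and 1.38 in CHMm and at 1.36, 1.25 and 1.19 in CHMmTAM. The mean log2 ratios of this pair differed by -0.004, less than the SD of 0.14 in CHMm and 0.10 in CHMmTAM. How reads that match both of these relatives were counted is not given in the sources used here, so the split of reads between them is uncertain. Over the 10 pairs of members, 3 had no overlap between the lines and reached an exact two-sided permutation p of 0.1, the smallest that 3 against 3 libraries allow. The adjusted p over the 10 pairs was 0.333 for these exact permutation tests. The separation of the pairs is thus given as measured values, and this design could not bring it past a threshold of 0.05. All 3 pairs without overlap hold miR-450a or miR-450b, so they restate the lower counts of these members and are not separate observations. The share of such pairs among all tested miRNAs was not computed, and 51.8% of single tested miRNAs had no overlap between the lines.

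**Figure D3:**
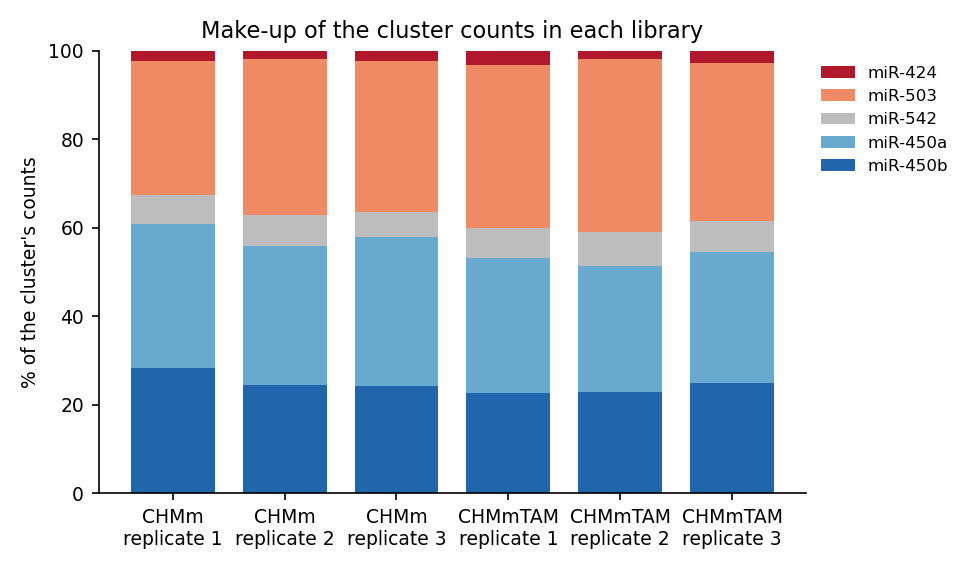
Percent of the summed counts of the cluster that came from each member, as stacked bars from 0 to 100% for each of the 6 libraries. miR-450a and miR-450b together form 55.9% to 60.8% of the bar in CHMm and 51.3% to 54.5% in CHMmTAM, and miR-503 takes most of the rest.

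Summed over its members, the cluster took 1388, 2223 and 1707 counts of the CHMm libraries, against 2192, 1935 and 1345 of the CHMmTAM libraries. After scaling these were 189.8, 191.4 and 190.8 CPM against 171.6, 175.4 and 169.0 CPM, with no overlap between the lines. The summed level was 190.7 ± 0.808 CPM (SD, n = 3) in CHMm against 172.0 ± 3.24 CPM (SD, n = 3) in CHMmTAM, a ratio of 0.902. The SD in CHMm depended on the scaling, at 5.29 CPM with library totals only, 2.93 with RLE and 2.96 with upper-quartile normalization. Without the 10 most abundant miRNAs in the scaling it was 1.48 CPM. In CHMmTAM the SDs were 5.76, 2.60, 2.29 and 2.67 CPM in this order. The Wilson interval of CHMm replicate 1, over its whole counts, ran from 175.3 to 194.7 CPM. The small SD under TMM therefore does not measure how well the CHMm libraries repeat. The sum is a description without a test, and it follows mainly miR-450a, miR-450b and miR-503, which held most of the counts. miR-450a and miR-450b together made up 58.2% ± 2.47 (SD, n = 3) of the cluster's counts in CHMm and 53.0% ± 1.63 in CHMmTAM. The share of miR-424 and miR-503 was 35.5% ± 2.43 in CHMm and 39.8% ± 1.28 in CHMmTAM, and for both shares the lines did not overlap. Both are parts of the same total, so these are not separate observations. miR-542 contributed 6.33% ± 0.643 and 7.20% ± 0.493, with overlap.

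The scaling of the libraries sets where no change lies, and for small changes this matters. Upper-quartile normalization shifted the median over the tested miRNAs, as a log2 fold change, from 0.06 to -0.18. Under it miR-503 was at -0.24 with FDR = 0.0233 by the edgeR QL test, so that 3 of the 5 members were then called lower, and miR-424 and miR-542 were at -0.08 and -0.21. A change of scaling moves all miRNAs by about the same amount, so subtraction of their median removes most of its effect by construction. Relative to the median of all tested miRNAs, the members were therefore bound to stay nearly level between scalings. miR-450a and miR-450b lay at -0.34 from the median on the log2 scale under each of the 5 scalings. miR-503 lay between -0.06 and -0.05 from the median, miR-542 at -0.03 and miR-424 at 0.10. miR-450a and miR-450b were lower and called under all 5 scalings, whereas the sign of the changes of the other 3 members depended on the scaling.

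**Figure D4:**
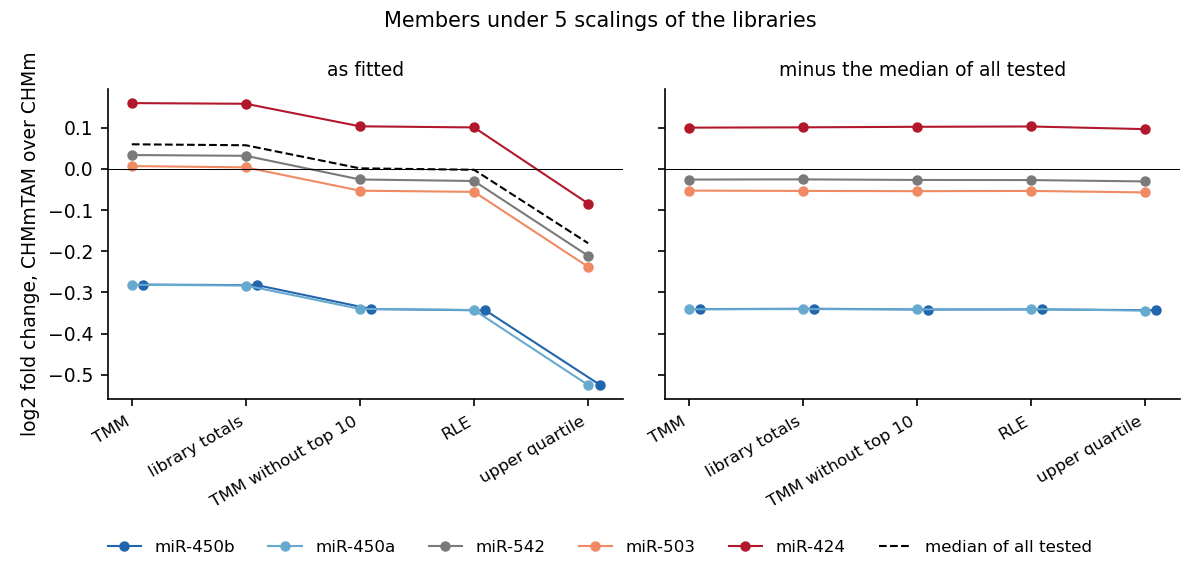
Log2 fold change of each member under 5 ways of scaling the libraries, as fitted on the left and after subtraction of the median of all tested miRNAs on the right; points of miR-450b are drawn slightly to the right because they coincide with those of miR-450a. On the left all lines drop with the dashed median under upper-quartile normalization. On the right they stay level, as the subtraction brings about by construction, with miR-450a and miR-450b at -0.34.

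miR-424 and miR-503 are placed here in the same family as miR-15a, miR-15b, miR-16, miR-195 and miR-497, all of which were tested. Whether miR-424 and miR-503 share the whole seed with them was not checked, since no mature sequences were used. These relatives are known as repressors of the cell cycle and of the survival factor BCL2. None of the 5 was called higher and 2 were called lower, where 25.4% and 18.7% of all tested miRNAs were. The called members, miR-195 and miR-497, are a pair of neighbouring genes outside the X chromosome. miR-497 fell from 33.2 ± 1.38 CPM (SD, n = 3) to 25.0 ± 2.20 CPM, a log2 fold change of -0.41 (SE 0.11). miR-195 fell from 46.6 ± 3.65 CPM to 39.8 ± 4.24 CPM, at -0.24 (SE 0.10), but its lines overlapped and the call was lost in 4 of the 6 fits without 1 library (FDR from 0.0843 to 0.226 by the edgeR QL test) and with library totals only (FDR = 0.0511). The FDR was 0.000586 for miR-497 and 0.0329 for miR-195 by the edgeR QL test. miR-15a, miR-15b and miR-16 were at log2 fold changes of 0.05, 0.16 and -0.08 and did not pass, with an unadjusted p of 0.037 for miR-15b by the edgeR QL test. miR-15b did pass as higher with edgeR's default filter (FDR = 0.0203) and without CHMmTAM replicate 1 (FDR = 0.0282). miR-16 passed as lower under upper-quartile normalization, at -0.32, and with DESeq2, at -0.15.

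miR-16 dominated the family. With a mean of 2039 CPM in CHMm and 1927 CPM in CHMmTAM, it was 32.1-fold and 30.1-fold above miR-503, and 494-fold and 428-fold above miR-424. miR-424 and miR-503 together gave 2.41%, 2.74% and 2.82% of the family's counts in CHMm and 2.89%, 2.85% and 2.63% in CHMmTAM. The values of the lines overlapped, with means of 2.66% ± 0.219 (SD, n = 3) and 2.79% ± 0.139 (SD, n = 3). The family summed to 2548 ± 65.7 CPM in CHMm and 2455 ± 75.5 CPM in CHMmTAM, also with overlap.

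The X-linked miRNA genes next on the MIR450B side were described by a list of miR-106a, miR-18b, miR-20b, miR-19b, miR-92a, miR-92b and miR-363. These are relatives of the proliferation-associated miR-17~92 cluster. In RefSeq, miR-106a, miR-18b, miR-20b and miR-363 have their only gene there, miR-19b and miR-92a also have a gene elsewhere that gives the same entry, and miR-92b is not on the X chromosome. Of the 6 that were tested, 3 were called higher and 1 lower, where 25.4% and 18.7% of all tested miRNAs were. The lower one was miR-92b, whose gene is not on the X chromosome. Its log2 fold change was -0.44 (FDR = 1.05e-06 by the edgeR QL test), and it was called under all alternatives. The gene of miR-106a is next to MIR450B among miRNA genes only, with HPRT1 and other annotated genes between them. miR-106a was counted 18, 53 and 41 times in CHMm, against 69, 77 and 59 times in CHMmTAM, and its log2 fold change was 0.70 (SE 0.21, FDR = 0.00262 by the edgeR QL test). Its call was lost without CHMm replicate 1, at 0.50 and FDR = 0.0604 from that test, and under upper-quartile normalization, at 0.46 and FDR = 0.0675. miR-20b rose from 15.1 ± 2.14 CPM (SD, n = 3) to 22.7 ± 4.31 CPM, at 0.58 (SE 0.13), and was called under all alternatives. miR-19b was at 0.34 (SE 0.08), but its lines overlapped, and its call was lost under upper-quartile normalization, at 0.10. Under that scaling miR-92a was called lower too, at -0.24. miR-18b was at 0.18 and did not pass, and miR-363 held a single count over the 6 libraries. Among the miRNA genes of this stretch of the chromosome, miR-106a and miR-20b were higher and miR-450b and miR-450a lower. The difference between the neighbouring clusters was itself not tested.

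**Figure D5:**
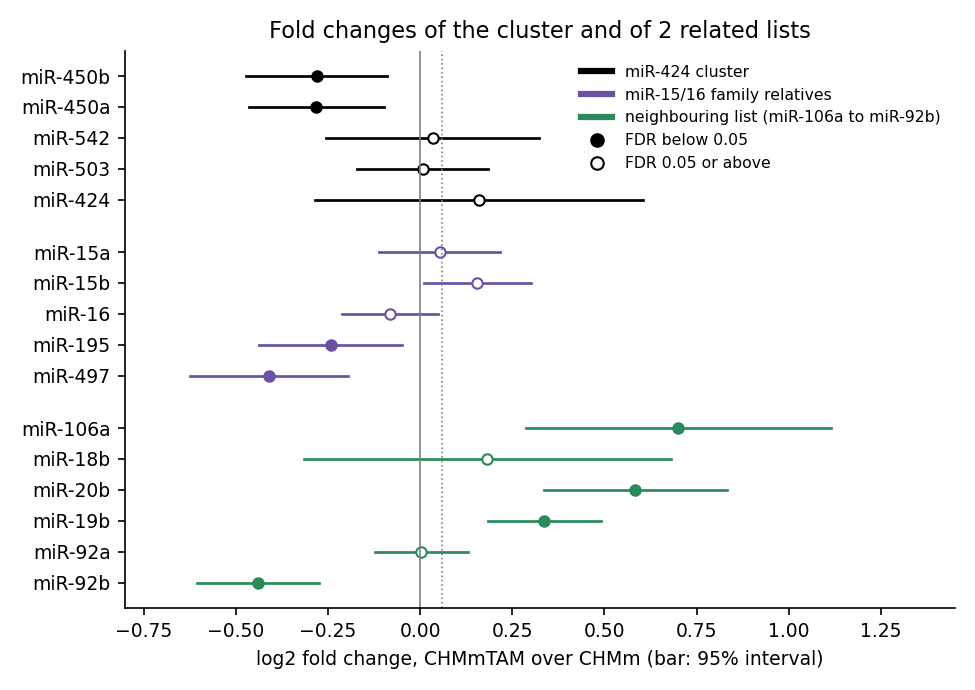
Log2 fold change of CHMmTAM over CHMm with its 95% interval for the 5 cluster members, the 5 miR-15/16 family relatives and the 6 tested miRNAs of the neighbouring list, with filled points for an FDR below 0.05 and a dotted line at the median of all tested miRNAs, 0.06. Filled points lie left of zero for miR-450a, miR-450b, miR-195, miR-497 and miR-92b, and right of it for miR-106a, miR-20b and miR-19b.

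The miRNAs with the profile most like that of the summed members were sought among 153 others of at least 10 CPM, by the root mean square difference of log2 CPM over the 6 libraries after centring each on its mean. The nearest were miR-125b (0.032), miR-1271 (0.034), miR-331 (0.040), miR-374a (0.043) and miR-1306 (0.043). The profiles hold the difference between the lines, so fold changes near that of the summed members follow from this choice. Their log2 fold changes lay between -0.18 and -0.12, and of these 5 only miR-374a passed an FDR below 0.05 (FDR = 0.0174 by the edgeR QL test). Among the members themselves, the profiles of miR-450a and miR-450b were the closest pair, with a difference of 0.098. miR-503 and miR-542 followed at 0.11, and the 4 pairs with miR-424 were the farthest apart, from 0.28 to 0.32. miR-424 had the fewest counts, and counting error alone gives 17.7% at its lowest count, 32. The part of counting error in these distances was not tested.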

How the data were processed

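Small RNA libraries of CHMm and CHMmTAM (3 each) were analysed, and the 6 RNA-seq libraries were not analysed here. The authors deposited raw read counts per miRNA name, without normalization. The submitters' processing notes name HISAT2 2.0.4, BWA and CanFam3.1. The miRNA database, trimming and the handling of multi-mapping reads are not given in the sources used here.

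Libraries were grouped by their titles. Counts were analysed with edgeR 4.0.16 in R 4.3.3. miRNAs with at least 10 counts in total were kept (284), scaled by TMM and compared by its quasi-likelihood (QL) test with no block, with Benjamini-Hochberg adjustment over all 284, and called at an FDR below 0.05. Standard errors and 95% intervals were derived from the F statistics. Before use, the fit was run on simulated counts, whose planted changes were all larger than those of the called members. That run does not show how often changes as small as theirs are recovered. Pair ratios were compared by exact permutation tests in SciPy 1.17.1. Alternatives were RLE, upper-quartile and library-total scaling, TMM without the 10 most abundant miRNAs, limma-voom (limma 3.58.1), DESeq2 1.42.0, other filters, a replicate block, each library left out, an FDR below 0.01, and a test against a fold change of 1.2. The miRNAs named are the members, the family relatives, the neighbouring X-linked list and the 5 nearest profiles. Relatives were taken from the list alone, since no mature sequences were used. The members and lists were chosen with earlier results of these data known. RefSeq gene names (UU_Cfam_GSD_1.0) matched 281 of the 284 tested miRNAs.

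Wilson intervals and the limit of 3 counts cover counting error only. With totals from 7512659 to 12482211 counts, members had between 32 and 803 counts per library.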

Additional observations from a re-analysis of the deposited data

How the results depend on the processing

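miR-450a and miR-450b kept their direction under every alternative run, with log2 fold changes from -0.52 to -0.25 and from -0.52 to -0.21. Neither passed the test against a 1.2-fold change, at unchanged log2 fold changes of -0.28 and -0.28. Without 1 library, miR-450b ranged from -0.32 to -0.21 and miR-450a from -0.29 to -0.25. The number of called members was 2, 1 at an FDR below 0.01, 0 with the limit of a log2 fold change above 1 or below -1, 0 against a 1.2-fold change, and from 1 to 2 without 1 library. Signs near zero turned. miR-503 was at -0.056 (RLE), -0.24 (upper quartile, called lower), -0.053 (TMM without the 10 most abundant miRNAs), -0.0028 (at least 10 counts in every library) and -0.055 (DESeq2). miR-542 was at -0.030 (RLE), -0.21 (upper quartile), -0.026 (without the 10 most abundant) and -0.028 (DESeq2), and miR-424 at -0.084 (upper quartile). Without 1 library, miR-503 ranged from -0.054 to 0.068, miR-542 from -0.048 to 0.12 and miR-424 from -0.072 to 0.36. The cause of the changes without 1 library was not tested, whereas those between scalings follow the shift of the median.

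Among the relatives, miR-15a was at -0.010 (RLE), -0.19 (upper quartile), -0.0062 (without the 10 most abundant) and -0.010 (DESeq2), and from -0.016 to 0.13 without 1 library. miR-15b was at -0.088 and miR-18b at -0.061 under upper quartile. miR-92a was at -0.058 (RLE), -0.24 (upper quartile, called lower), -0.056 (without the 10 most abundant), -0.0058 (at least 10 counts in every library) and -0.058 (DESeq2), and from -0.023 to 0.040 without 1 library. The log2 ratio of the summed members was -0.15, -0.21 (RLE), -0.21 (without the 10 most abundant) and -0.39 (upper quartile). Without 1 library, the difference in log2 ratio ranged from -0.12 to 0.35 for miR-424 to miR-503, from -0.18 to 0.33 for miR-424 to miR-542, from -0.11 to 0.074 for miR-503 to miR-542 and from -0.079 to 0.060 for miR-450a to miR-450b.

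Over all miRNAs, 125 passed an FDR below 0.05 (57.6% higher), from 121 to 141 under the other settings and from 114 to 126 without 1 library. The higher share was 46.7% under RLE, 48.1% without the 10 most abundant, 47.6% with DESeq2 and 29.1% under upper quartile. Replicate numbers were not treated as pairs, since same-numbered libraries correlated at 0.06, 0.46 and -0.31 over 117 miRNAs above 50 CPM, and only replicate 2 correlated best with its own number. With the replicate block, 126 passed, miR-450a was at -0.28 and miR-450b at -0.28, both called, and miR-424, miR-503 and miR-542 were at 0.11, 0.01 and 0.04. At these counts only miR-424, with 32 to 73 counts, leaves a change of over 1.5-fold inside its interval.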

Other observations

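Of the tested miRNAs, 34 have their only RefSeq gene on the X chromosome, the 5 cluster members included. Among the other 29, 3 were called higher and 9 lower at an FDR below 0.05, where 25.4% and 18.7% of all tested miRNAs were, with a median log2 fold change of -0.07 against 0.06 over all tested miRNAs. The largest called changes were those of miR-221 and miR-222, at -1.52 and -1.36. The other lower ones were miR-532, miR-362, miR-500 and miR-502, at -0.54, -0.41, -0.29 and -0.53, and miR-8908c, miR-421 and miR-374a, at -0.94, -0.53 and -0.18. Not called were miR-660, at -0.71 (FDR = 0.135 by the edgeR QL test), and miR-188, at 0.23 (FDR = 0.157 by the same test). miR-505 was higher, at 0.63. These genes were named after their values were seen.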
